A study of Mus musculus with 8 samples.

Results

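The mouse genome encodes the alpha chains of collagen in genes named Col followed by the collagen type, the letter a and the chain number. All 44 genes of the count table whose symbol had this form were taken, out of 29079 genes in the table. They comprised 11 fibrillar chains, 9 network chains and 24 other chains, and the choice used gene names alone. The libraries came from MC38, a mouse colon adenocarcinoma line that the labels call an epithelial cell line. A CRISPR-Ctrl line (called WT) and a Piezo2-KO line made with a single guide, Piezo2-gRNA1 (called KO), were each left non-irradiated (nonIR) or given 1 X-ray dose of 30 Gy (IR), and RNA of irradiated cells was taken 60 h later. Piezo2 is a mechanically gated ion channel. Each of the 4 groups, WT nonIR, WT IR, KO nonIR and KO IR, had 2 libraries. The labels do not say whether the 2 libraries of a group were separate cultures or whether the KO line was 1 clone, so all p-values here rest on library-to-library spread, which may be technical.

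Collagen chains wind around each other into a helix in the endoplasmic reticulum, where prolyl and lysyl hydroxylases modify them and the chaperone HSP47 (encoded by Serpinh1) holds the folded helix. Fibrillar collagens are trimmed outside the cell, align into staggered fibrils and are cross-linked by lysyl oxidases. Network collagens form sheets such as the type IV scaffold of basement membranes. The remaining classes coat fibrils, build beaded filaments, anchor epithelia to the stroma or cross the plasma membrane. In colon tumours most fibrillar collagen is usually made by fibroblasts, and epithelial cells are better known for basement membrane chains.

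Total counts were 10971004 to 19887180 per library. Piezo2 had 0 to 12 reads per library and was not tested: 0 and 0 in WT nonIR, 3 and 9 in WT IR, 0 and 1 in KO nonIR, and 7 and 12 in KO IR. These reads therefore do not check the knockout, since a small edit need not lower the mRNA. Of 14 epithelial markers listed, 11 were in the table and 4 passed the filter on low counts. The tight junction and keratin genes Krt18, Cldn3, Cldn4 and Cldn7 had at most 3 reads in any library, whereas Cdh1, which encodes E-cadherin, averaged 39.8 to 78.2 CPM per group (CPM, read counts scaled to a common library total). Of the 12 macrophage markers listed, 5 (C1qa, C1qb, Adgre1, Tyrobp and Itgam) had at most 3 reads in any library, as had the fibroblast markers Lum and Mfap5. Others of the macrophage list had more reads. Ptprc had 0 and 2 in WT nonIR and 20 and 20 in WT IR, and Fcer1g 3 and 4 against 6 and 5. The 13 fibroblast markers, which include no collagen, nevertheless summed to 167 to 180 CPM in WT nonIR, 339 to 369 in WT IR, 165 to 174 in KO nonIR and 348 to 377 in KO IR. Pdgfrb and Dcn in both lines, and Fbln1 in WT, carried most of that difference. The 12 macrophage markers summed to 4.02 to 4.14, 37.9 to 40, 7.51 to 8.22 and 56.3 to 65.5 CPM in the same groups, but Cd68 alone, a lysosomal protein gene, averaged 3.63, 36.2, 7.41 and 57.6 CPM, and no other marker of that list averaged above 1.29. The 9 endothelial markers summed to 4.38 to 6.07, 16 to 22.7, 9.4 to 9.71 and 14.7 to 19.2 CPM, and the 6 smooth muscle and pericyte markers, nearly all of it Cspg4, to 506 to 661, 293 to 406, 607 to 790 and 455 to 633. The epithelial sum, mostly Tjp1, separated the lines, with 224 to 252 and 246 to 273 CPM in WT nonIR and WT IR against 371 to 384 and 365 to 395 in KO nonIR and KO IR. T and NK cell markers stayed at 0.365 to 1.43 CPM. The other 5 sums moved with irradiation or with the line, and their part in the changes of collagen genes was not tested. In bulk libraries, a change in the number of cells that express a gene and a change in its RNA per cell cannot be told apart.

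The 4 collagen genes that passed the test in each of the 4 comparisons between groups were Col3a1, Col11a2 and Col16a1, higher each time, and Col8a1, lower each time. Over all tested genes 6.03% were called in all 4, and those comparisons share libraries. The 250 bases before the start of these genes are shown so that the members called in all 4 comparisons can be compared at the sequence level. They are RefSeq windows of GRCm38.p6 in the direction of transcription, read on the plus strand except for Col8a1, which is on the minus strand: chr1:45311288-45311537 for Col3a1, chr17:34038888-34039137 for Col11a2, chr4:130047590-130047839 for Col16a1 and chr16:57754738-57754987 for Col8a1. Capitals mark matches, on either strand, to the TATA box (letters TATAAA), to the box spelled CCAAT and to the GC box (letters GGGCGG).
Col3a1: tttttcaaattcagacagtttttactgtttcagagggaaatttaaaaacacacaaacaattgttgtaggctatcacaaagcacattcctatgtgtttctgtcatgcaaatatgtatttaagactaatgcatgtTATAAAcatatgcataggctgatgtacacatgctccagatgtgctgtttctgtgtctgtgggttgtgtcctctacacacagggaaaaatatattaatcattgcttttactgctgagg
Col11a2: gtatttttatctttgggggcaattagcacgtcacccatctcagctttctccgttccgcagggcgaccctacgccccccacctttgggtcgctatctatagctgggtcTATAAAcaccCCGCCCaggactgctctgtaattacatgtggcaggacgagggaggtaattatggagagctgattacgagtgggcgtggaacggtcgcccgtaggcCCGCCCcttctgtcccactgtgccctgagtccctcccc
Col16a1: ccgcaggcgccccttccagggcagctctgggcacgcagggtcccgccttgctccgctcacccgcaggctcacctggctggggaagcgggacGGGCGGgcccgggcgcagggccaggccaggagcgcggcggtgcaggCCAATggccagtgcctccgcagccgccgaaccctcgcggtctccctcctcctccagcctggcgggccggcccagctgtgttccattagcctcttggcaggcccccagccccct
Col8a1: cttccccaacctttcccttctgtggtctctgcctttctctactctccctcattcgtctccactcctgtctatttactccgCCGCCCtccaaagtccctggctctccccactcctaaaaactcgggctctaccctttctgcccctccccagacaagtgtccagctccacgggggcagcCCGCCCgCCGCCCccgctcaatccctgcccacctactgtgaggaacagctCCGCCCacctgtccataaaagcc
Col3a1 and Col11a2 each held 1 TATA box match, which 12.4% of 32851 RefSeq windows of this length hold. Col11a2 also held 2 and Col8a1 held 4 GC box matches, a motif present in 32.7% of all windows. Col16a1 held 1 GC box and 1 CCAAT box match, the latter present in 33.8% of all windows, and its window overlapped an exon of the non-coding gene Gm12963. Base composition differed widely, from 35.2% G and C with 0 CpG in Col3a1 to 75.6% with 21 CpG in Col16a1. Col11a2 had 57.6% with 14 CpG and Col8a1 60.8% with 10 CpG, against a median of 52.4% with 6 CpG over all windows. Windows were found for 35 of the 44 members. Of these, 21 held the GC box, 13 the CCAAT box and 5 the TATA box. The AP-1 element (letters TGANTCA) was in 1, Col6a1, against 6.75% of all windows. The interferon-stimulated element, searched as GAAA repeated with any 2 bases between, was in 0 against 2.98%. The 3 genes that were higher in all comparisons thus shared no single motif among those searched, and a match is a description of letters, not of a bound site.

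Collagen transcripts made up 0.553% to 1.19% of the counts of a library, and chains of types VI, I, III, XVI and IV made up nearly all of them. Levels were compared between genes as CPM per kb of exon. On that scale Col6a1, a chain of the beaded filaments that link cells to the surrounding matrix, came first with 35.2% of all collagen signal and 285 to 501 CPM per kb over the 8 libraries. On this scale its lowest library was above the highest library of every other chain. With the longest transcript as length, the mean ratio of Col6a1 over Col6a2 was 1.69 instead of 2.68. Ranks, shares and gaps between genes thus depend on the length used. Col6a3 and Col6a2, partners of Col6a1 in the same filament, followed with 116 to 223 and 92.5 to 223 CPM per kb, ranges that overlap. The 3 type VI chains together held 63.2%. Col1a2 of type I collagen held 7.53% and Col3a1 of type III collagen 6.06%. Their ranges, 60.3 to 113 and 31.4 to 119 CPM per kb, overlapped each other and those of Col16a1, Col4a2 and Col4a1. These first 8 genes held 93.3% of the collagen signal. Col1a1, the other chain of type I collagen, ranked 17th with a mean of 1.44 CPM per kb and a range of 0.705 to 2.5. At the other end 10 members did not pass the filter on low counts: Col4a3, Col8a2 and Col10a1 among network chains, and Col6a6, Col9a1, Col9a2, Col13a1, Col19a1, Col23a1 and Col26a1 among the others. Their highest count in any library was 14.

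**Figure D1:**
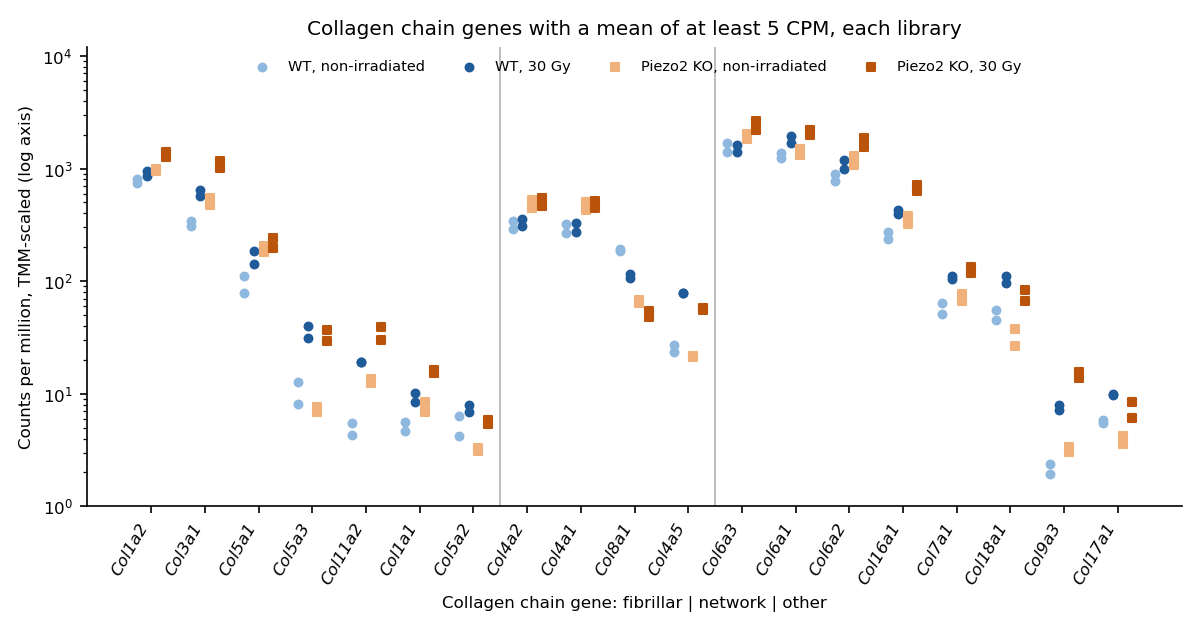
Levels (CPM) of the 19 collagen chains that average 5 CPM or more, on a log axis, with 1 point per library and the 4 groups in colour; vertical lines separate fibrillar, network and other chains. For Col3a1 the libraries climb from 308 and 343 in WT nonIR to 1020 and 1170 in KO IR, while those of Col8a1 descend from 185 and 194 to 48.3 and 54.4.

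Summed over its members, the fibrillar class had 111 ± 9.81 CPM per kb in WT nonIR (SD, n = 2), 165 ± 15.4 in WT IR, 158 ± 10.4 in KO nonIR and 259 ± 24 in KO IR. Both irradiated groups lay above the non-irradiated group of their line without overlap, and both KO groups lay above the matching WT group. The network class had 115 ± 12.2, 118 ± 10.7, 148 ± 16.1 and 156 ± 16.4 CPM per kb in the same order (SD, n = 2). It separated the lines, with 137 to 168 CPM per kb in KO against 107 to 125 in WT, but its libraries overlapped between irradiated and non-irradiated cells of each line. The other class had 578 ± 51, 763 ± 73.6, 690 ± 65.8 and 1010 ± 102 CPM per kb (SD, n = 2), with no overlap between any of the 4 groups compared pairwise except WT IR and KO nonIR. As a share of all collagen signal, network chains went from 14.3% to 11.2% with irradiation in WT and from 14.8% to 10.9% in KO, and fibrillar chains from 13.8% to 15.8% and from 15.9% to 18.1%. These shares and the order of the classes depend on the length used. With the longest transcript instead, fibrillar chains had 220 and network chains 135 CPM per kb in WT nonIR. An exact permutation test of 2 libraries against 2 cannot give a two-sided p below 0.333, so these sums were not tested. In each group the library numbered 2 had the higher total, with 753 against 856 CPM per kb in WT nonIR, 975 against 1120 in WT IR, 931 against 1060 in KO nonIR and 1330 against 1530 in KO IR.

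**Figure D2:**
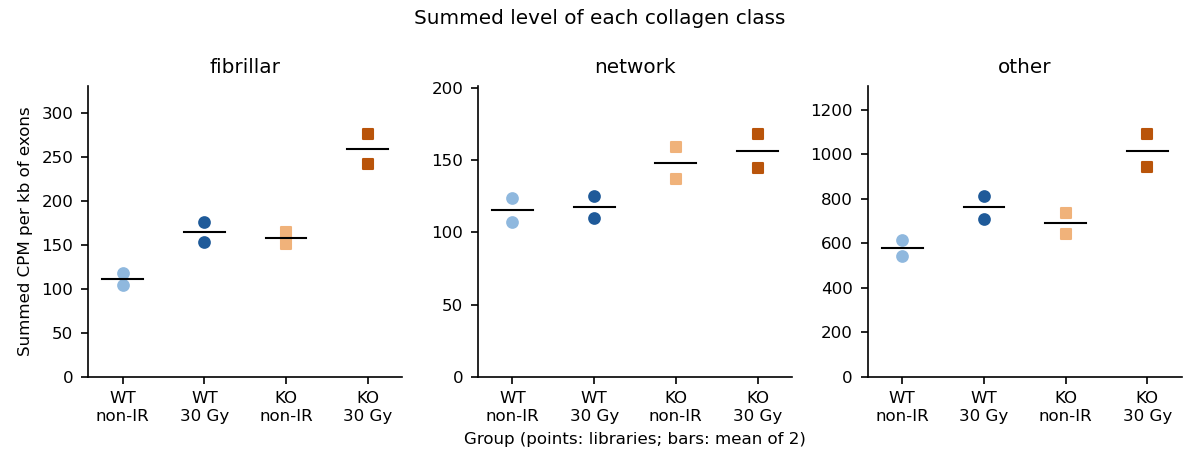
Summed CPM per kb of exon for fibrillar, network and other collagen chains, 1 point per library and a bar at the mean of the 2 libraries of each group. The fibrillar sum reaches 242 and 276 in KO IR against 104 and 118 in WT nonIR, whereas the network sum differs by line and stays at 107 to 125 in all 4 WT libraries.

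Abundant collagen chains that were higher after irradiation in both lines included Col3a1, Col6a1, Col16a1, Col7a1 and Col18a1, while Col4a1 and Col4a2 passed no test for irradiation and Col8a1 was lower. Of the 34 members tested, 21 were higher and 1 lower in WT IR than in WT nonIR, where 20.4% of all tested genes were higher and 18.4% lower (38.9% either way). In KO, 23 were higher and 1 lower, against 21.1% and 18.6% (39.7% either way). Nothing is read from these counts, because 10 of the 34 (Col4a6, Col6a4, Col6a5, Col11a1, Col12a1, Col14a1, Col15a1, Col22a1, Col24a1 and Col25a1) passed the filter on low counts only through irradiated libraries, where they are high. Of the other 24, 13 were higher and 1 lower in WT, and 15 higher and 1 lower in KO. Among the 19 members with a mean of at least 5 CPM, 12 were higher and 1 lower in WT and 14 higher and 1 lower in KO, where in WT 19.5% of all genes at that level were higher and 25% lower (44.4% either way), and in KO 20.4% and 25.1% (45.5% either way). By class, 5 of the 9 fibrillar, 1 of the 5 network and 7 of the 10 other chains among those 24 were higher in WT, and 6, 1 and 8 in KO; the 1 lower member was the network chain Col8a1 in both lines. The members higher in both lines numbered 20, which is 95.2% of the WT list and 87% of the KO list, and 12 of them were among the 24; 14.8% of all tested genes were higher in both. Col5a1 was called in WT alone, and Col1a2, Col5a2 and Col6a2 in KO alone. The difference between lines was called for none of these without the block, and with it for Col5a1 (adjusted p = 9.51e-09), Col1a2 (adjusted p = 0.000205) and Col6a2 (adjusted p = 0.0332). With replicate number as a block, 25 were higher and 1 lower in each line, against 30.6% higher and 29.9% lower of all genes in WT (60.5% either way) and 30.6% and 29.6% in KO (60.2% either way). Of the 34, the number higher was 12 in WT without WT nonIR library 1 and 14 in KO without KO IR library 2, and in KO the lower count was 0 without KO nonIR library 1 or KO IR library 1.

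In edgeR with all 8 libraries, knockout cells had more mRNA of some abundant chains from every class and less of Col8a1 in both states. How many members were called depended on single libraries, as given below. Without irradiation 8 members were higher and 1 lower in KO than in WT, with a median log2 difference of 0.34. Over all tested genes 10.4% were higher and 9.49% lower (19.9% either way), with a median of -0.01. Of the 34, 6 would not have passed the filter without KO libraries, and 3 (Col4a6, Col22a1 and Col25a1) would not have passed without WT libraries. Col22a1 and Col25a1 belong to both sets. Col14a1, which needed KO libraries, was the only one of all these called in KO against WT. After irradiation 11 were higher, Col14a1 included, and 3 lower, with a median of 0.04, against 13.3% higher and 11.4% lower (24.6% either way) and a median of -0.01. The 3 lower members were Col2a1, Col4a5 and Col8a1. The 19 members with a mean of at least 5 CPM held 8 higher and 1 lower without irradiation, where 12.7% of genes at that level were higher and 11.5% lower (24.2% either way). After irradiation they held 10 higher and 2 lower, against 15.8% and 13.8% (29.5% either way). Col1a2, Col3a1, Col4a1, Col4a2, Col6a2, Col11a2 and Col16a1 were higher in KO in both states, as were 6.84% of all tested genes. By class, 4 fibrillar, 2 network and 2 other chains were higher without irradiation, and 4, 2 and 5 (4 without Col14a1) after it. With the block 13 were higher and 7 lower without irradiation, and 14 higher and 7 lower after it, where 21.4% and 23.5% of all genes (44.9% either way), and then 25.2% and 25.2% (50.4% either way), were called. Without irradiation DESeq2 called 8 higher and 2 lower (9.24% and 8.26% of all genes, 17.5% either way), and edgeR with no filter on low counts 10 and 3 (6.62% and 5.75%, 12.4% either way). Without WT nonIR library 1, library 2 or KO nonIR library 2, the count of higher members without irradiation was 1, 5 and 2; the lower count was 2 without WT nonIR library 1 or KO nonIR library 2. After irradiation the count of higher members was 6 without WT IR library 1 and 4 without KO IR library 2, and the lower count was 1 without KO IR library 1.

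**Figure D3:**
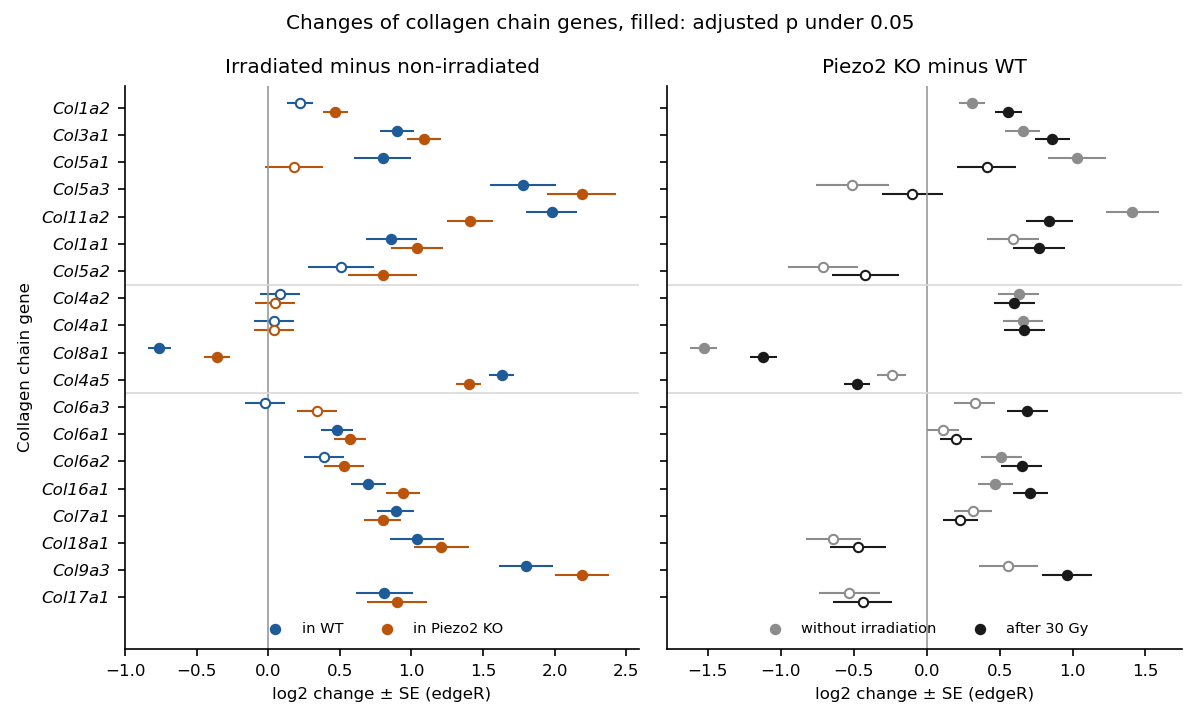
Log2 change ± SE from edgeR for the 19 members with a mean of at least 5 CPM: irradiated minus non-irradiated in each line (left) and KO minus WT in each state (right), with filled points for an adjusted p under 0.05. Most points lie to the right of 0 in the left panel, Col4a1 and Col4a2 lie near 0 on the left and near 0.6 on the right, and Col8a1 lies below 0 throughout.

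Among fibrillar chains, Col3a1, which encodes the chain of type III collagen of vessel walls and other elastic tissues, stepped up with irradiation and with the knockout. It had 308 and 343 CPM in WT nonIR, 567 and 644 in WT IR, 478 and 552 in KO nonIR, and 1020 and 1170 in KO IR. No 2 groups overlapped, although KO nonIR and WT IR lay close together. The irradiation effect was 1.86-fold in WT (log2 0.90 ± 0.12 SE, adjusted p = 0.000925) and 2.13-fold in KO (1.09 ± 0.12, adjusted p = 0.000343). KO exceeded WT 1.58-fold without irradiation (log2 0.66 ± 0.12, adjusted p = 0.00722) and 1.81-fold after it (0.86 ± 0.12, adjusted p = 0.00176). The former call was lost without WT nonIR library 1 (log2 0.56 to 0.77 over the fits that leave out 1 library). Col1a2, the alpha-2 chain of type I collagen, the main collagen of bone, skin and tendon, was the most abundant fibrillar chain and moved less. Its libraries held 749 and 812 CPM in WT nonIR, 863 and 956 in WT IR, 947 and 992 in KO nonIR, and 1270 and 1410 in KO IR. Irradiation raised it in KO (log2 0.47 ± 0.09, adjusted p = 0.00555). In WT the value was 0.22 ± 0.09 with an adjusted p of 0.093, or 6.13e-07 with the block. It was higher in KO without irradiation (log2 0.31 ± 0.09, adjusted p = 0.0492) and after it (0.56 ± 0.09, adjusted p = 0.00405); the former call was lost on leaving out any 1 of the 8 libraries, with log2 values of 0.26 to 0.37.

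Col1a1, the alpha-1 chain that normally outnumbers Col1a2 in the type I molecule, was scarce here. It had 4.63 and 5.61 CPM in WT nonIR, 8.44 and 10.1 in WT IR, 6.87 and 8.43 in KO nonIR, and 15.3 and 16.4 in KO IR. The KO IR libraries were the highest, and each irradiated group lay above its non-irradiated group. Irradiation effects were 1.82-fold in WT (log2 0.86 ± 0.18, adjusted p = 0.00825) and 2.06-fold in KO (1.04 ± 0.18, adjusted p = 0.003). KO exceeded WT after irradiation (log2 0.77 ± 0.18, adjusted p = 0.0164), whereas without irradiation 0.59 ± 0.18 had an adjusted p of 0.0617, or 0.00383 with the block. The WT irradiation call was lost without WT nonIR library 1 or WT IR library 2 (log2 0.71 to 1.00 over the fits that leave out 1 library), and the KO call after irradiation without WT IR library 1 or either KO IR library (0.66 to 0.89).

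Type V chains, which initiate fibrils and set their width, went separate ways. Col5a1 had 77.8 and 111 CPM in WT nonIR, 143 and 186 in WT IR, 180 and 206 in KO nonIR, and 195 and 242 in KO IR, so that only WT nonIR stood clear of the other groups. It was 1.74-fold higher with irradiation in WT (log2 0.80 ± 0.20, adjusted p = 0.0158) and 2.05-fold higher in KO without irradiation (1.03 ± 0.20, adjusted p = 0.0107). In KO the irradiation effect was 0.18 ± 0.20 (adjusted p = 0.519, or 0.00198 with the block) with overlapping libraries, and the KO effect after irradiation was 0.41 ± 0.20 (adjusted p = 0.175, or 3.17e-09 with the block). The WT irradiation call was lost without WT nonIR library 1 or WT IR library 2 (log2 0.55 to 1.08), and the KO call without WT nonIR library 1 or KO nonIR library 2 (0.80 to 1.31).

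Col5a3, by contrast, tracked irradiation. Its libraries held 8.04 and 12.7 CPM in WT nonIR, 31.2 and 39.8 in WT IR, 6.87 and 7.61 in KO nonIR, and 29.5 and 36.8 in KO IR. The rise was 3.43-fold in WT (log2 1.78 ± 0.23, adjusted p = 0.000884) and 4.56-fold in KO (2.19 ± 0.24, adjusted p = 0.000368). The lines overlapped after irradiation (-0.10 ± 0.21, adjusted p = 0.785), and without it the KO value was -0.51 ± 0.25 (adjusted p = 0.192, or 0.00237 with the block). Col5a2 had 4.2 and 6.34 CPM in WT nonIR, 8.01 and 6.96 in WT IR, 3.11 and 3.29 in KO nonIR, and 5.39 and 5.82 in KO IR. Its KO libraries lay below the WT libraries of the same state, which is opposite to Col5a1. It was higher with irradiation in KO (log2 0.80 ± 0.24, adjusted p = 0.0309), a call kept in 2 of the 8 fits that left out 1 library, those without either WT nonIR library (0.72 to 0.86 over all 8). The irradiation value in WT was 0.51 ± 0.23 (adjusted p = 0.12, or 0.0208 with the block). The KO value was -0.71 ± 0.24 without irradiation (adjusted p = 0.077, or 0.00793 with the block) and -0.42 ± 0.23 after it (adjusted p = 0.236).

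Chains usually found in cartilage were measured too. Col11a2 of type XI collagen, a minor partner of cartilage fibrils, had 4.32 and 5.47 CPM in WT nonIR, 19.3 and 19.3 in WT IR, 12.4 and 13.6 in KO nonIR, and 30 and 39 in KO IR. No group overlapped another. It rose 3.95-fold with irradiation in WT (log2 1.98 ± 0.18, adjusted p = 0.000163) and 2.65-fold in KO (1.41 ± 0.16, adjusted p = 0.000483). It was 2.66-fold higher in KO without irradiation (log2 1.41 ± 0.18, adjusted p = 0.00181) and 1.79-fold after it (0.84 ± 0.16, adjusted p = 0.00758); this last call was lost without KO IR library 2, and the log2 value ran from 0.65 to 1.02 over the fits without 1 library. Col2a1, the main chain of cartilage collagen, was near 1 CPM, with 0.853 and 1.27 in WT nonIR, 2.38 and 1.66 in WT IR, 1.1 and 1.23 in KO nonIR, and 0.723 and 0.913 in KO IR. After irradiation it was lower in KO (log2 -1.29 ± 0.39, adjusted p = 0.0499), a call lost on leaving out any 1 of the 8 libraries (-1.55 to -0.99) and not made in the other 3 comparisons. Col27a1, a fibrillar chain of developing cartilage, had group means of 1.29 to 2.28 CPM and passed no test.

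Of the network chains, Col4a1 and Col4a2, which pair into the common basement membrane collagen, moved with the line and not measurably with irradiation. Col4a1 had 269 and 323 CPM in WT nonIR, 276 and 331 in WT IR, 429 and 506 in KO nonIR, and 444 and 520 in KO IR. For Col4a2 the values were 289 and 343, 311 and 357, 445 and 530, and 466 and 546 CPM. In both genes all 4 KO libraries lay above all 4 WT libraries, and irradiated and non-irradiated libraries of a line overlapped. KO exceeded WT 1.58-fold for Col4a1 without irradiation (log2 0.66 ± 0.14, adjusted p = 0.0168) and 1.59-fold after it (0.67 ± 0.14, adjusted p = 0.013). For Col4a2 the KO effects were 0.63 ± 0.14 (adjusted p = 0.0172) and 0.60 ± 0.14 (adjusted p = 0.0166). Irradiation values of Col4a1 were 0.04 ± 0.14 in WT and 0.04 ± 0.14 in KO, with adjusted p of 0.868 and 0.842, and those of Col4a2 were 0.08 ± 0.14 and 0.05 ± 0.14. The KO calls of both genes were lost without WT nonIR library 1 or KO nonIR library 2 in non-irradiated cells, and without WT IR library 1 or KO IR library 2 in irradiated cells, with log2 values of 0.49 to 0.80 over those fits. The genes lie head to head on chromosome 8, with Col4a1 starting at 11312826 on the minus strand and Col4a2 at 11312805 on the plus strand, so that the first 22 bases are shared.

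Col4a5 and Col4a6, chains of more specialised basement membranes, are also head to head, on chromosome X with 1308 bases between their starts. Col4a5 had 23.6 and 27.2 CPM in WT nonIR, 79.2 and 78.2 in WT IR, 21.3 and 21.5 in KO nonIR, and 54.9 and 57.9 in KO IR. It rose 3.1-fold in WT (log2 1.63 ± 0.09, adjusted p = 2.67e-05) and 2.63-fold in KO (1.40 ± 0.09, adjusted p = 3.2e-05), calls kept without any 1 library. Col4a5 was lower in KO after irradiation (log2 -0.48 ± 0.09, adjusted p = 0.00702), except without KO IR library 1 (-0.51 to -0.43), and was -0.24 ± 0.10 without irradiation (adjusted p = 0.115, or 0.0246 with the block). Col4a6 had 0 reads in both WT nonIR libraries and 20 and 17 in WT IR, at least 12.9-fold higher when the group at 0 is set to 3 reads. In KO it had 0 and 2 reads without and 10 and 7 after irradiation, a ratio of 8.09 (95% exact interval 1.92 to 72.2, counting error only). Col4a6 passed the filter only through irradiated libraries, so these reads are a description and no p is given.

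Col8a1, a short-chain network collagen of vessel walls and of the membrane under the corneal endothelium, was the member that was lower in every comparison. It had 185 and 194 CPM in WT nonIR, 107 and 116 in WT IR, 67.7 and 64 in KO nonIR, and 48.3 and 54.4 in KO IR, with no overlap. It fell with irradiation 1.7-fold in WT (log2 -0.76 ± 0.08, adjusted p = 0.000432) and 1.28-fold in KO (-0.36 ± 0.09, adjusted p = 0.0142), the latter call lost without KO nonIR library 1 or KO IR library 1 (log2 -0.47 to -0.27). KO was 2.88-fold below WT without irradiation (log2 -1.53 ± 0.09, adjusted p = 8.26e-05) and 2.18-fold after it (-1.12 ± 0.09, adjusted p = 0.000123), kept without any 1 library. Col8a1 lies on chromosome 16, where the 448 tested genes had a median KO difference of -0.32 without and -0.36 after irradiation, and 31.2% and 34.2% of them were lower in KO. Of these 448 genes, 19 (4.24%) lay below Col8a1 without irradiation and 33 (7.37%) after it; the part of this chromosome-wide difference in the Col8a1 result was not tested. Col4a4, another specialised basement membrane chain, averaged 0.503 to 0.72 CPM and passed no test.

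The type VI chains of beaded filaments were the most abundant of all. They were called in different comparisons, and differences between the chains were not tested. Col6a1 had 1250 and 1360 CPM in WT nonIR, 1690 and 1930 in WT IR, 1310 and 1500 in KO nonIR, and 1970 and 2190 in KO IR. It rose with irradiation 1.39-fold in WT (log2 0.48 ± 0.11, adjusted p = 0.0101; lost without WT nonIR library 1 or WT IR library 2, log2 0.37 to 0.55) and 1.48-fold in KO (0.57 ± 0.11, adjusted p = 0.00463). The lines differed by 0.11 ± 0.11 without irradiation (adjusted p = 0.524, or 0.00343 with the block) and 0.20 ± 0.11 after it (adjusted p = 0.215, or 4.43e-07 with the block). Col6a1 thus followed irradiation more than genotype. Col6a2 had 770 and 887 CPM in WT nonIR, 997 and 1180 in WT IR, 1080 and 1280 in KO nonIR, and 1560 and 1860 in KO IR. It was higher in KO without irradiation (log2 0.51 ± 0.14, adjusted p = 0.0369) and after it (0.65 ± 0.14, adjusted p = 0.0124). With irradiation it was higher in KO (0.53 ± 0.14, adjusted p = 0.0185), while in WT 0.39 ± 0.14 had an adjusted p of 0.0553, or 1.14e-13 with the block and 0.0156 with DESeq2.

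Col6a3, the long chain whose tails reach out of the filament, had 1390 and 1690 CPM in WT nonIR, 1400 and 1630 in WT IR, 1830 and 2030 in KO nonIR, and 2210 and 2670 in KO IR. The WT libraries overlapped between states, and all KO libraries lay above them. It was called only after irradiation in KO against WT (log2 0.69 ± 0.14, adjusted p = 0.00985); without irradiation 0.33 ± 0.14 had an adjusted p of 0.141, or 1.08e-11 with the block. The irradiation values were -0.02 ± 0.14 in WT (adjusted p = 0.917) and 0.34 ± 0.14 in KO (adjusted p = 0.0872, or 3.14e-12 with the block and 0.0449 with DESeq2). Without 1 library, the KO calls of Col6a2 and Col6a3 after irradiation were lost on leaving out WT IR library 1 or KO IR library 2 (log2 0.53 to 0.83), that of Col6a2 with irradiation in KO on leaving out KO nonIR library 1 or KO IR library 2 (0.37 to 0.66), and that of Col6a2 without irradiation on leaving out any of the 4 libraries compared (0.39 to 0.64). Col6a4, which can take the place of the alpha-3 chain, was scarce without irradiation. It had 0.304 and 0.133 CPM in WT nonIR, 4.76 and 5.76 in WT IR, 0.366 and 0.925 in KO nonIR, and 3.22 and 2.8 in KO IR. The irradiated libraries lay above the others in both lines. Col6a5, a close relative, had 1 and 12 reads in all in the 2 WT states and 4 and 25 in KO. Both genes passed the filter only through irradiated libraries, so no p is given for their change with irradiation.

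Chains that sit on fibrils or resemble those that do included Col16a1, which was higher in all 4 comparisons. Its libraries held 237 and 271 CPM in WT nonIR, 393 and 432 in WT IR, 323 and 378 in KO nonIR, and 629 and 717 in KO IR. No 2 groups overlapped, and KO IR stood highest. Irradiation effects were 1.63-fold in WT (log2 0.70 ± 0.12, adjusted p = 0.00294) and 1.92-fold in KO (0.94 ± 0.12, adjusted p = 0.000726). KO effects were 1.38-fold without irradiation (0.47 ± 0.12, adjusted p = 0.0293) and 1.63-fold after it (0.71 ± 0.12, adjusted p = 0.00438); the former was lost without either WT nonIR library or KO nonIR library 2 (log2 0.35 to 0.58). Col9a3 of type IX collagen, which decorates cartilage fibrils, had 2.38 and 1.94 CPM in WT nonIR, 7.14 and 7.88 in WT IR, 3.39 and 3.03 in KO nonIR, and 15.6 and 13.7 in KO IR. It rose 3.47-fold in WT (log2 1.80 ± 0.19, adjusted p = 0.000374) and 4.58-fold in KO (2.19 ± 0.19, adjusted p = 0.000107), and was higher in KO after irradiation (0.96 ± 0.17, adjusted p = 0.00639), except without KO IR library 1 (0.88 to 1.07). Without irradiation the KO value was 0.56 ± 0.20 (adjusted p = 0.0881). The exons of Col9a3 overlap the opposite-strand gene Tcfl5 over 6.07% of their length, and since the strand setting of the counting is not given, reads of that stretch cannot be assigned.

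Col14a1, which binds type I fibrils, was nearly silent in non-irradiated cells. It had 0 and 2 reads in WT nonIR, 17 and 8 in WT IR, 3 and 6 in KO nonIR, and 63 and 71 in KO IR. KO IR was far above the rest at 4.14 and 4.05 CPM. From the reads, WT IR exceeded WT nonIR 13-fold (95% exact interval 3.25 to 114). Col14a1 passed the filter only through irradiated and only through KO libraries, so these values are a description and no p is given. Its relatives Col12a1, Col20a1 and Col22a1 had group means of at most 2.85 CPM and passed no test in edgeR without the block. With the block Col20a1 was lower in KO without irradiation (adjusted p = 0.0475) and after it (adjusted p = 0.000115), and higher with irradiation in WT (adjusted p = 0.0159). DESeq2 also called Col20a1 lower in KO after irradiation (adjusted p = 0.0467).

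Col7a1, the chain of the anchoring fibrils, had 51.6 and 63.8 CPM in WT nonIR, 104 and 110 in WT IR, 66.7 and 77 in KO nonIR, and 117 and 134 in KO IR. It rose 1.85-fold in WT (log2 0.89 ± 0.13, adjusted p = 0.00136) and 1.74-fold in KO (0.80 ± 0.13, adjusted p = 0.00202). The KO values were 0.32 ± 0.13 without irradiation (adjusted p = 0.122, or 1.91e-05 with the block) and 0.23 ± 0.12 after it (adjusted p = 0.221, or 0.000202 with the block). Col17a1, a transmembrane collagen of hemidesmosomes, had 5.48 and 5.81 CPM in WT nonIR, 10 and 9.82 in WT IR, 3.57 and 4.21 in KO nonIR, and 6.11 and 8.5 in KO IR. It rose 1.76-fold in WT (log2 0.81 ± 0.20, adjusted p = 0.0157) and 1.87-fold in KO (0.90 ± 0.21, adjusted p = 0.0116). The WT call was lost without any 1 of the 4 WT libraries (0.76 to 0.85), and the KO call without KO nonIR library 1 or KO IR library 2 (0.62 to 1.12).

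Col18a1, the basement membrane collagen whose tail is released as endostatin, had 45.6 and 55.3 CPM in WT nonIR, 96.3 and 112 in WT IR, 26.4 and 37.7 in KO nonIR, and 66.3 and 83.5 in KO IR. It rose 2.06-fold in WT (log2 1.04 ± 0.19, adjusted p = 0.00404) and 2.32-fold in KO (1.21 ± 0.19, adjusted p = 0.00218). KO libraries of Col17a1 and Col18a1 lay below the WT libraries of the same state. In edgeR the KO values missed the threshold for Col18a1, at -0.64 ± 0.19 without irradiation (adjusted p = 0.0544, or 1.25e-09 with the block) and -0.47 ± 0.19 after it (adjusted p = 0.106, or 8.39e-09 with the block). DESeq2 called both, with adjusted p of 0.00641 and 0.0493. For Col17a1 the KO values were -0.53 ± 0.21 (adjusted p = 0.124, or 0.0287 with the block) and -0.44 ± 0.20 (adjusted p = 0.155, or 0.0237 with the block). Col15a1, the relative of Col18a1, had 2 and 1 reads in WT nonIR, 23 and 30 in WT IR, 0 and 6 in KO nonIR, and 10 and 34 in KO IR. Its WT ratio from reads was 18.4 (95% exact interval 5.97 to 92.2), a description with no p, since Col15a1 passed the filter only through irradiated libraries. Col28a1, a collagen described around peripheral nerve, had 2.86 and 2.54 CPM in WT nonIR, 6.13 and 5.02 in WT IR, 3.21 and 2.26 in KO nonIR, and 5.58 and 5.25 in KO IR. It was 2.06-fold higher with irradiation in WT (log2 1.04 ± 0.25, adjusted p = 0.0126) and 2-fold in KO (1.00 ± 0.25, adjusted p = 0.0151). The lines overlapped in both states. The WT call was lost without WT nonIR library 2 or WT IR library 1 (0.88 to 1.17), and the KO call without KO nonIR library 2 or either KO IR library (0.74 to 1.25).

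Col24a1, Col11a1 and Col25a1 were counted almost only after irradiation. They passed the filter only through those libraries, so their reads are a description and no p is given. Col24a1, a fibrillar chain of developing bone, had 0 and 0 reads in WT nonIR, 9 and 6 in WT IR, 1 and 1 in KO nonIR, and 14 and 22 in KO IR. It was at least 5.21-fold higher in WT IR, and its KO ratio was 17.1 (95% exact interval 4.41 to 147). Col11a1, the partner of Col11a2, had 1 read in WT nonIR and 31 in WT IR, a ratio of 32.3 (5.39 to 1320), and 0 and 29 reads in the KO states, at least 9.21-fold higher. Col25a1, a transmembrane collagen of neurons and muscle, had 0 reads in all 4 non-irradiated libraries and 17 and 18 in WT IR and KO IR. It was at least 5.91-fold and 5.71-fold higher. A count of 0 allows up to 0.151 to 0.273 CPM depending on the library, so these chains may have been present below that level.

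Whether irradiation acted differently in the 2 lines was tested as an interaction. edgeR called 0 members, against 1.37% of all tested genes higher and 0.57% lower (1.94% either way; 2.63% of genes with at least 5 CPM, 1.87% higher and 0.761% lower). At an unadjusted p under 0.05 there were 4 members, Col2a1, Col6a4, Col8a1 and Col11a2. Of these, Col6a4 passed the filter only through irradiated libraries, so nothing is read from its place here. DESeq2 called 0 (1.96% and 0.848% of all genes, 2.81% either way), and edgeR with no filter on low counts called 0 higher and 2 lower (1.23% and 0.753%, 1.99% either way). For Col8a1 the log2 change in KO exceeded that in WT by 0.41 ± 0.12 (adjusted p = 0.197), and for Col11a2 the same difference was -0.57 ± 0.24 (adjusted p = 0.378). With the replicate block 6 members had a higher and 3 a lower irradiation effect in KO, where 8.15% and 8.55% of all genes were called (16.7% either way). Higher were Col8a1 (0.42 ± 0.08), Col6a3 (0.36 ± 0.04), Col1a2 (0.25 ± 0.05), Col16a1 (0.24 ± 0.06), Col3a1 (0.20 ± 0.05) and Col6a2 (0.14 ± 0.05), with block-adjusted p from 5.18e-08 for Col6a3 to 0.0332 for Col6a2. Lower were Col5a1 (-0.63 ± 0.07) and Col11a2 (-0.56 ± 0.19), with block-adjusted p of 9.51e-09 and 0.0322. Also lower was Col6a4 (-2.43 ± 0.70), for which no p is given because of how it passed the filter. These calls rest on the pairing of same-numbered libraries.

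Pairs of chains were compared as ratios of CPM per kb within each library. Col3a1 with Col1a2 and Col4a5 with Col4a1 are not partners in 1 molecule. Col1a1 over Col1a2 was 0.0117 and 0.0131 in WT nonIR, 0.0185 and 0.02 in WT IR, 0.0137 and 0.0161 in KO nonIR, and 0.0228 and 0.022 in KO IR. The textbook type I molecule holds more alpha-1 than alpha-2 chain, and in all 8 libraries the mRNA ratio was far on the other side. Col3a1 over Col1a2 went from 0.528 ± 0.00999 in WT nonIR (SD, n = 2) to 1.03 ± 0.0226 in KO IR, with WT IR at 0.842 ± 0.0153 and KO nonIR at 0.672 ± 0.046. Col4a1 over Col4a2 stayed between 0.787 and 0.856 in all 8 libraries, while Col4a5 over Col4a1 ranged from 0.0472 in a KO nonIR library to 0.318 in a WT IR library. Col5a3 over Col5a1 was 0.136 ± 0.00982 in WT nonIR, 0.27 ± 0.00359 in WT IR, 0.0468 ± 0.00113 in KO nonIR and 0.189 ± 0.00116 in KO IR (SD, n = 2), so that the 4 groups were apart. Col5a1 over Col5a2 was 19.8 to 30.2 in WT and 41 to 70.9 in KO. Col6a1 over Col6a2 was 2.9 to 3.23 in WT and 2.22 to 2.4 in KO, and Col6a3 over Col6a1 fell into 0.302 and 0.31 in WT IR against 0.407 to 0.51 in the other libraries. These ratios were not tested, and their absolute size depends on the transcript length used.

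**Figure D4:**
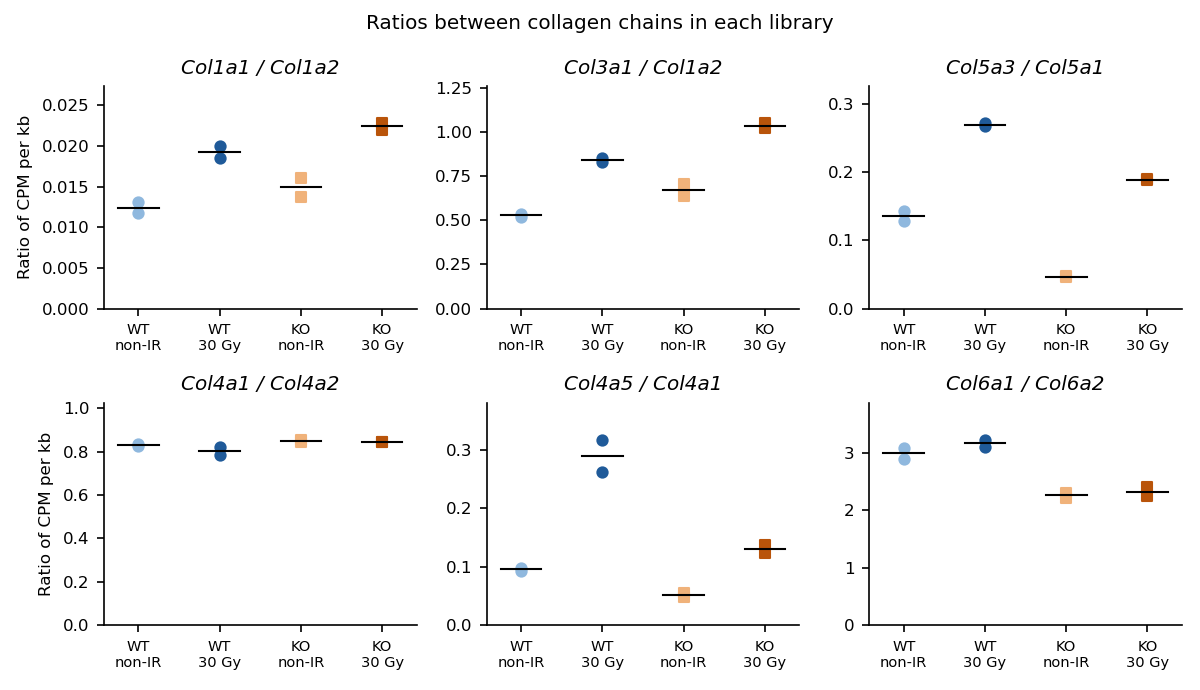
Ratios of CPM per kb between chains, 1 point per library and a bar at the mean of 2, each axis starting at 0. Col4a1/Col4a2 is nearly level at 0.787 to 0.856, whereas Col3a1/Col1a2 goes from 0.521 to 1.05 and Col5a3/Col5a1 separates all 4 groups.

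Genes of collagen folding, trimming and cross-linking, from lists set out beside the collagen chains, changed in part. For this and the following lists, it was not checked which genes passed the filter on low counts only through 1 state or line. Their counts of calls are therefore a description. Of 20 tested modifying enzymes and chaperones, 3 were higher and 2 lower with irradiation in WT, and 4 and 3 in KO. In KO against WT 6 were higher and 2 lower both without and after irradiation. With the block these counts were 7 and 7, 5 and 7, 11 and 3, and 10 and 3. All tested genes were 20.4% higher and 18.4% lower with irradiation in WT, 21.1% and 18.6% in KO, 10.4% and 9.49% in KO against WT without irradiation and 13.3% and 11.4% after it, and with the block 60.5%, 60.2%, 44.9% and 50.4% either way. Without the block, the irradiation counts of this list lay near or below those shares, and nothing is read from them. Serpinh1, the HSP47 chaperone gene, went from 430 ± 2.77 CPM in WT nonIR to 834 ± 35.2 in KO nonIR (SD, n = 2; log2 0.96 ± 0.07, adjusted p = 0.000196) and from 478 ± 3.16 in WT IR to 785 ± 7.4 in KO IR (0.72 ± 0.07, adjusted p = 0.000385). Plod1, a lysyl hydroxylase, was higher in KO by 1.53 ± 0.10 and 1.58 ± 0.10 (log2, adjusted p = 0.000141 and 6.03e-05), and P4ha3, a prolyl hydroxylase subunit, was lower without irradiation (-1.72 ± 0.15, adjusted p = 0.000327). Fkbp14, a folding enzyme, was higher in KO after irradiation (1.10 ± 0.19, adjusted p = 0.00457). P4ha1, the catalytic subunit of another prolyl hydroxylase, passed no test, with values of -0.12 to 0.06 (irradiation in KO, block-adjusted p = 0.0162). P3h2, a prolyl 3-hydroxylase, rose with irradiation in WT (2.90 ± 0.23) and KO (1.53 ± 0.21), and its relative P3h4 fell (-1.18 ± 0.07 and -1.13 ± 0.07); their adjusted p values were 9.77e-05, 0.00119, 3.85e-05 and 2.89e-05.

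Of 11 tested genes of trimming and cross-linking, 5 were higher and 2 lower with irradiation in WT, 4 and 1 in KO, and in KO against WT 5 and 2 without irradiation and 4 and 2 after it (all tested genes either way: 38.9%, 39.7%, 19.9% and 24.6%, and with the block 60.5%, 60.2%, 44.9% and 50.4%). Loxl2, a lysyl oxidase, was almost lost in KO, with 0.297 ± 0.161 CPM against 11.5 ± 1.37 in WT without irradiation (SD, n = 2; log2 -5.12 ± 0.30, adjusted p = 8.3e-05) and 0.993 ± 0.29 against 30.9 ± 0.229 after it (-4.93 ± 0.25, adjusted p = 2e-05). In WT it rose with irradiation (1.42 ± 0.20, adjusted p = 0.00127). Loxl4 fell with irradiation in WT (-1.42 ± 0.08, adjusted p = 2.46e-05) and KO (-1.52 ± 0.08, adjusted p = 8.16e-06). Lox had at most 3 reads in any library. Adamts2, which removes the amino-terminal propeptide of fibrillar collagens, was lower in KO without irradiation (-1.25 ± 0.18, adjusted p = 0.00291) and higher with irradiation in KO (1.04 ± 0.18, adjusted p = 0.00288), and its relative Adamts14 was higher in KO after irradiation (1.00 ± 0.15, adjusted p = 0.00264). With the block the counts of this list were 6 and 2, 5 and 3, 6 and 5, and 5 and 4.

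Among 14 tested proteoglycans and other assembly partners, 10 were higher and 0 lower with irradiation in WT, and 10 and 1 in KO; the KO comparisons gave 6 and 2 without irradiation and 5 and 3 after it (with the block 12 and 2, 11 and 2, 8 and 3, and 6 and 5). Of all tested genes 20.4%, 21.1%, 10.4% and 13.3% were higher in these comparisons and 18.4%, 18.6%, 9.49% and 11.4% lower, and with the block 60.5%, 60.2%, 44.9% and 50.4% were called either way. Postn, a member of this list, had 3 and 2 reads in WT nonIR and 24 and 22 in WT IR. How the members passed the filter was not checked, so nothing is read from these counts. The interaction was called for 0 members of the list as higher and 2 as lower, Dcn (-1.71 ± 0.21, adjusted p = 0.00735) and Fmod, encoding fibromodulin (-2.07 ± 0.24, adjusted p = 0.00578), against 0.57% of all genes lower; Fmod was named after its value was seen. Dcn, encoding decorin, which coats fibrils, went from 1.74 ± 0.202 to 38.2 ± 2.79 CPM in WT and from 8.84 ± 1.1 to 58.1 ± 5.43 in KO (SD, n = 2; log2 4.44 ± 0.16 and 2.73 ± 0.13, adjusted p = 6.8e-06 and 6.47e-06). Without irradiation it was higher in KO (2.32 ± 0.17, adjusted p = 0.00019). Dcn is also among the fibroblast markers summed above. Fn1, encoding fibronectin, on which collagen fibrils assemble, rose with irradiation by 2.98 ± 0.13 in WT and 2.52 ± 0.13 in KO (adjusted p = 1.09e-05 and 7.61e-06) and was lower in KO after irradiation (-2.37 ± 0.12, adjusted p = 2.14e-05), opposite in direction to Col3a1. Lama4, a laminin chain of basement membranes, averaged 0.515 ± 0.321 CPM in WT IR and 34.8 ± 1.43 in KO IR, and 0.0334 ± 0.0472 in WT nonIR and 10 ± 0.488 in KO nonIR (SD, n = 2). With WT this low, Lama4 reached the filter on low counts through KO libraries, where it is high, so no p is given.

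Of 8 tested collagen receptors, 5 were higher and 1 lower with irradiation in WT and 3 and 2 in KO, while the KO comparisons gave 1 and 1 without and 0 and 1 after irradiation (with the block 5 and 3, 4 and 3, 2 and 2, and 1 and 4). Shares of all tested genes called either way were 38.9% and 39.7% for irradiation and 19.9% and 24.6% for KO, or 60.5%, 60.2%, 44.9% and 50.4% with the block. Itga10, an integrin subunit that binds collagen, rose in WT (1.35 ± 0.13, adjusted p = 0.000221) and KO (1.13 ± 0.13, adjusted p = 0.000427), and was higher in KO without irradiation (0.62 ± 0.13, adjusted p = 0.0149). Mrc2, an endocytic collagen receptor, rose in WT (0.80 ± 0.13, adjusted p = 0.00265). Itga3, which mainly binds laminin, fell with irradiation in KO (-0.81 ± 0.14, adjusted p = 0.00343) and was lower in KO without irradiation (-0.49 ± 0.14, adjusted p = 0.0459) and after it (-0.57 ± 0.14, adjusted p = 0.0225). Of 9 tested collagen-degrading enzymes and their inhibitors, 5 were higher and 1 lower with irradiation in WT and 8 and 1 in KO, and the KO comparisons gave 1 and 3 without and 3 and 1 after irradiation (with the block 6 and 1, 8 and 1, 2 and 3, and 6 and 2), against the same shares of all genes. Timp1, a metalloproteinase inhibitor, was the lower gene in both lines (-1.66 ± 0.07 and -1.16 ± 0.07, adjusted p = 1.14e-05 and 2.04e-05), and it was lower in KO without irradiation (-0.32 ± 0.07, adjusted p = 0.0165). Ctsb, a lysosomal protease, rose with irradiation in KO (1.38 ± 0.10, adjusted p = 4.3e-05). Mmp14, a membrane-bound collagenase, was higher in KO (0.60 ± 0.10 and 0.78 ± 0.10, adjusted p = 0.00661 and 0.00157), and Mmp9, a gelatinase, rose with irradiation in WT (2.98 ± 0.38, adjusted p = 0.000841) and was lower in KO after irradiation (-3.18 ± 0.38, adjusted p = 0.00101).

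Of 18 transcription regulators and TGF-beta genes, 3 were higher and 3 lower with irradiation in WT, 2 and 3 in KO, and the KO comparisons gave 2 and 2 and then 3 and 5 (with the block 6 and 4, 5 and 5, 2 and 7, and 4 and 9). Of all tested genes 38.9% and 39.7% were called with irradiation and 19.9% and 24.6% in KO (60.5%, 60.2%, 44.9% and 50.4% with the block). The irradiation counts of this list lay near or below those shares, and nothing is read from them. Tgfb3, a TGF-beta ligand, rose with irradiation in WT (0.84 ± 0.10, adjusted p = 0.00048) and KO (0.79 ± 0.10, adjusted p = 0.000598). Smad2 and Smad4, which carry TGF-beta signals to the nucleus, were higher in KO without irradiation (0.62 ± 0.08 and 0.60 ± 0.09, adjusted p = 0.00221 and 0.00403). Egr1, an immediate early transcription factor, fell with irradiation in WT (-1.33 ± 0.25, adjusted p = 0.00492), and Sp1, a factor that binds GC boxes, fell in KO (-0.73 ± 0.08, adjusted p = 0.000306). After irradiation KO was below WT for Scx, a transcription factor of tendon cells (-0.94 ± 0.15, adjusted p = 0.00418), and for Tgfb2, another TGF-beta ligand (-0.57 ± 0.16, adjusted p = 0.0333).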

How the data were processed

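mRNA of 8 MC38 libraries was sequenced. The authors deposited whole-number read counts per Ensembl gene. HISAT2, HISAT, HTSeq and DESeq2, with build mm10, are named in the submitters' processing notes; no version, strand setting or annotation release is stated there (not given in the sources used here). Counts were tested in R 4.3.3 with edgeR 4.0.16 (quasi-likelihood F test, two-sided): filterByExpr (minimum count 10, total 15) kept 14923 genes, 8 libraries were fitted with 1 coefficient per group and TMM factors of 0.975 to 1.024 (4 residual degrees of freedom), and Benjamini-Hochberg adjustment ran over all 14923, with calls under 0.05. CPM are TMM-scaled; per-kb values use GENCODE M21 union exons. The tested genes held 99.86% to 99.93% of counts, and 0 reads allows 3 counts. The labels name no molecular identifiers, so intervals for folds and for 0 reads include counting error alone.

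Values per library and tests are given for each member with at least 5 CPM in its highest group, or called in a comparison with at least 1 CPM there, except that no irradiation test is given for members that passed the filter only through irradiated libraries; pathway genes are the 2 largest called changes per list and comparison, plus Serpinh1, Lox and P4ha1. Members and lists were chosen with earlier results of these data known. Scripts were tested on simulated data. Replicates of a group differed beyond counting noise in 36.1% to 37.7% of genes. Deviations of same-numbered libraries from their group means correlated between all 6 pairs of groups (0.564 to 0.611 over genes), so the numbers were taken to pair the libraries, a hint from the data that the labels do not explain. Alternatives were that block, DESeq2 1.42.0, RLE factors, no filter, fits of only the groups compared, each library left out, and other lengths and scales.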

Additional observations from a re-analysis of the deposited data

Results flagged for a closer look

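Col2a1 stood out because irradiated and non-irradiated libraries did not overlap in either line, with opposite order. Irradiated libraries were above non-irradiated ones in WT (1.66 and 2.38 against 0.853 and 1.27 CPM) and below them in KO (0.723 and 0.913 against 1.1 and 1.23). With 2 libraries against 2, such an order alone cannot give an exact two-sided permutation p below 0.333. The interaction, KO change less WT change, was -1.43 ± 0.56 (log2, SE), with an edgeR adjusted p of 0.352, so the difference did not pass the test. Col2a1 had 11 to 33 reads per library.

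Col6a4 was marked for the same reason in the other direction of the design. KO libraries lay above WT without irradiation (0.366 and 0.925 against 0.304 and 0.133 CPM) and below WT after it (2.8 and 3.22 against 4.76 and 5.76). The difference between these 2 effects was -2.40 ± 0.69 (log2, SE), or -2.43 ± 0.70 in the block by replicate number. Col6a4 passed the filter only through irradiated libraries, so no p is given. The effect without irradiation rests on 2 to 18 reads per library.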

How the results depend on the processing

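Of 1449 values of single genes under all alternatives, 1279 kept their direction and side of the threshold, 104 were no longer called, 48 became called and 18 changed sign. RLE factors changed no call. Of 111 such values under DESeq2, 4 became called and 4 were no longer called. Newly called were Col18a1 in KO in both states, Col6a2 with irradiation in WT and Col6a3 with irradiation in KO. Lost were Col5a2, Col28a1 and Col4a6 with irradiation in KO, and Col2a1 in KO after irradiation. With the replicate block, members higher and lower numbered 25 and 1 for irradiation in WT, 25 and 1 in KO, 13 and 7 for KO without irradiation, 14 and 7 after it, and 6 and 3 for the interaction; it lost no call. DESeq2 gave 2 and no filter 3 lower members in KO without irradiation, and no filter gave 2 lower members for the interaction. Leaving out 1 library at a time gave 12 to 20 higher and 1 to 1 lower for irradiation in WT, 14 to 21 and 0 to 1 in KO, 1 to 7 and 1 to 2 for KO without irradiation, 4 to 11 and 1 to 3 after it, and 0 to 0 for the interaction; a group left with 1 library was assumed to vary like the others.

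The sign changes were all in uncalled values and came from leaving out 1 library. Over the fits without 1 library the log2 values ran, for irradiation in WT, from -0.05 to 0.21 for Col4a2 (-0.03 in another), -0.11 to 0.17 for Col4a1 (-0.10 in another) and -0.17 to 0.12 for Col6a3 (0.07 in another). For irradiation in KO they ran from -0.01 to 0.33 for Col5a1, -0.09 to 0.18 for Col4a2 (-0.08 in another) and -0.10 to 0.16 for Col4a1 (-0.08 in another). KO without irradiation gave -0.11 to 0.45 for Col2a1 and -3.66 to 1.62 for Col15a1. KO after irradiation gave -0.25 to 0.07 for Col5a3 (0.06 in another), -0.20 to 0.12 for Col28a1 (0.01 in another) and -1.34 to 0.21 for Col15a1.

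With the longest transcript as length, sums in WT nonIR, WT IR, KO nonIR and KO IR were 220, 311, 302 and 489 CPM per kb for fibrillar and 705, 930, 858 and 1260 for other chains, and 135 and 132 in WT for network chains. Ratios averaged over 8 libraries became 0.00821 for Col1a1/Col1a2 (0.0172 with union exons), 0.584 for Col3a1/Col1a2 (0.769), 0.916 for Col4a1/Col4a2, 27.5 for Col5a1/Col5a2, 0.177 for Col5a3/Col5a1, 1.69 for Col6a1/Col6a2 and 0.463 for Col6a3/Col6a1. The shift is by construction, since it divides by another length. Depth limits members near the 0.151 to 0.273 CPM that 0 reads allow.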
